A study of Mus musculus with 16 samples.

Results

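The anaphase-promoting complex/cyclosome (APC/C) genes described here are Cdc20, Fzr1, Fbxo43, Fbxo5, Ube2c, Ube2s, Cdc27, Cdc16, Cdc23 and Anapc11. They were found by name in the deposited expression table, where these 10 genes hold 10 of 28618 entries, 1 each. RNA-seq was made from fully grown mouse oocytes arrested at the germinal vesicle (GV) stage and from eggs at metaphase II (MII), each from wild-type (WT) females and from Psma7 cKO females, which carry Psma7 flox/flox alleles and Zp3-Cre. Zp3-Cre acts in growing oocytes only, so the somatic cells of the follicle keep the gene. Psma7, the gene of a subunit of the 20S proteasome core, is deleted after the oocyte has begun to grow. Females were 3 to 4 weeks old. GV oocytes were taken 44 h after 5 IU of PMSG, and eggs came from the oviduct 14 to 16 h after a further hCG injection and were freed of cumulus cells with 0.3% hyaluronidase. Each of the 4 groups (WT GV, Psma7 cKO GV, WT MII and Psma7 cKO MII) had 4 libraries, labelled as biological replicates. The labels give 5 oocytes per library, the study's methods name another pool size, and neither says how many females a pool came from. The paper reports that some ovulated Psma7 cKO oocytes stayed at the GV stage or stopped in meiosis I. Its methods do not say whether eggs were sorted by stage for RNA-seq, so MII here follows the labels. The part of such oocytes in the differences between the egg groups was not tested.

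The APC/C is a ubiquitin ligase that marks cyclin B and securin for the proteasome, and so opens the way out of M phase. It works only when an activator, Cdc20 or Fzr1 (also called Cdh1), is bound to it. In mouse oocytes the Fzr1 form holds cyclin B low during the GV arrest, and the Cdc20 form drives the exit from meiosis I. Fbxo5 (Emi1) and Fbxo43 (Emi2) are related inhibitors of the complex, and Fbxo43 keeps the ovulated egg at MII until fertilisation. The E2 enzyme Ube2c places the first ubiquitins on a substrate and Ube2s lengthens them into chains. Anapc11 is the RING subunit that receives the E2, and Cdc27, Cdc16 and Cdc23 are subunits of the scaffold to which the activators dock.

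The libraries were primed with oligo-dT, so the 3′ end of a transcript bears on how it is captured, and stored oocyte mRNAs gain or lose poly(A) tail during maturation. The ends of 5 genes that show different courses below are therefore printed, read from the GRCm38 genome within the 3′ UTR of the last exon of each GENCODE M21 model. Capitals mark the poly(A) signal hexamer (AATAAA or ATTAAA) and the cytoplasmic polyadenylation element, or CPE (TTTTAT or TTTTAAT), and only the transcript's strand was searched. The windows lie on the minus strand at chr4:118432911-118432940 for Cdc20, chr10:5799226-5799255 and chr10:5799160-5799189 for Fbxo5, chr15:36150068-36150097 for Fbxo43, chr11:104502748-104502777 for Cdc27 and chr7:4808016-4808045 for Ube2s.
Cdc20: ttttaTTTTATtttttctAATAAAgttcgt
Fbxo5, CPE: aatgtgagttttTTTTATatctgtgaatac
Fbxo5, hexamer: tttgtttagttaaAATAAAtttagaggtgt
Fbxo43: ttaaaactaataATTAAAtttaaaatttac
Cdc27: atggaaaatccaAATAAAttacttttgaaa
Ube2s: tttggttttctaAATAAAaagttggaaaag
In Cdc20 the CPE stood a few bases ahead of the hexamer, and a further copy overlapped it at the start of the window. A CPE lay within the last 100 bases of the 3′ UTR in 2 of the 10 genes, Cdc20 and Fbxo5, that is in 20% against 17.1% of 20886 protein-coding genes. Anywhere in the 3′ UTR a CPE was found in 6 of the 10 genes, against 54.6% of all genes. The hexamer was found within the last 50 bases in 9 of the 10 genes, against 74.5% of all genes, the exception being the annotated end of Fzr1. These matches describe the annotated ends, which may not be the ends used in oocytes.

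The deposited values are FPKM, which count fragments relative to transcript length and to the size of the library, and the steps between the smallest of them gave an estimated depth of 10.7 to 15.8 M fragments per library (median 13.8 M). At that depth an estimated 23 fragments stood behind the lowest Cdc23 value, 144 behind the lowest Cdc16 value, 161 behind the lowest Fzr1 value and at least 1419 behind every value of the other 7 genes. Psma7 itself lay at 142 to 201 FPKM in WT and at 11.1 to 18.0 in Psma7 cKO GV oocytes, and at 97.7 to 172 in WT and 13.6 to 59.9 in Psma7 cKO eggs. Its log2 difference between genotypes was -3.51 in GV oocytes and smaller in eggs, at -1.83, where the Psma7 cKO libraries varied more. The 8 oocyte markers (Zp1, Zp2, Zp3, Gdf9, Bmp15, Figla, Nobox and Ooep) exceeded 1 FPKM in all 4 groups, with a sum of 4893 to 14189 FPKM per library. The 12 cumulus and granulosa markers summed to 13.3 to 21.3 FPKM, with Tnfaip6 at 0 in 3 of the groups and Foxl2 at 0 in 3, while Cyp19a1 (group means 8.10 to 13.7 FPKM) and Kitl (3.86 to 6.11 FPKM) made up most of it and exceeded 1 FPKM in all 4. That sum was 13.3 to 15.3 FPKM in WT and 15.8 to 19.6 FPKM in Psma7 cKO GV oocytes, and 17.3 to 21.3 FPKM in WT and 19.6 to 21.0 FPKM in Psma7 cKO eggs, and its part in the differences between groups was not tested. From GV oocytes to eggs 6 of the 8 oocyte markers fell in limma in each genotype (median log2 change -2.60 in WT and -1.94 in Psma7 cKO). Of all transcripts tested, 52.4% fell in WT and 51.0% in Psma7 cKO, with medians of -0.44 and -0.42. Of the cumulus and granulosa markers, 2 were tested in WT and 3 in Psma7 cKO. Cyp19a1 rose in both (0.76 and 0.51) and Kitl in WT (0.59), while Cyp11a1 fell in Psma7 cKO (-0.97, limma adjusted p = 0.000308). No ERCC spike-in entry is in the table, so each value is a share of a library and does not show a change in total RNA, and fewer cells of a type cannot be told apart from less RNA in each such cell.

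By FPKM the E2 enzymes and Fbxo5 were the most abundant of the 10 genes and Cdc23 the least. In WT GV oocytes the mean level, in FPKM with SD over 4 libraries, was 261 ± 22.8 for Ube2s, 228 ± 31.3 for Ube2c and 175 ± 6.30 for Fbxo5. Among the 28618 entries of the table Ube2s ranked 222nd by that mean and Ube2c 276th. Of the activators and the other inhibitor, Cdc20 stood at 108 ± 15.2, Fzr1 at 63.7 ± 19.6 and Fbxo43 at 60.9 ± 8.44 FPKM. The ranges of Fzr1 and Fbxo43 overlapped. Among the subunits, Anapc11 stood at 37.9 ± 5.24, Cdc27 at 34.6 ± 3.29 and Cdc16 at 14.1 ± 1.15 FPKM, and the ranges of Anapc11 and Cdc27 overlapped. Cdc23 was at 1.47 ± 0.195 FPKM and ranked 9991st. By the group means the first 4 places (Ube2s, Ube2c, Fbxo5, Cdc20) were held in the same order in all 4 groups, although the ranges of Ube2s and Ube2c overlapped in WT GV oocytes and those of Ube2c and Fbxo5 in Psma7 cKO GV oocytes, while Fzr1 moved from 5th in GV oocytes to 8th in eggs of both genotypes. The 10 values together came to 985 ± 27.1 FPKM in WT GV, 976 ± 33.1 in Psma7 cKO GV, 1062 ± 76.8 in WT MII and 994 ± 101 in Psma7 cKO MII libraries, and the ranges of these sums overlapped between genotypes at both stages.

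**Figure D1:**
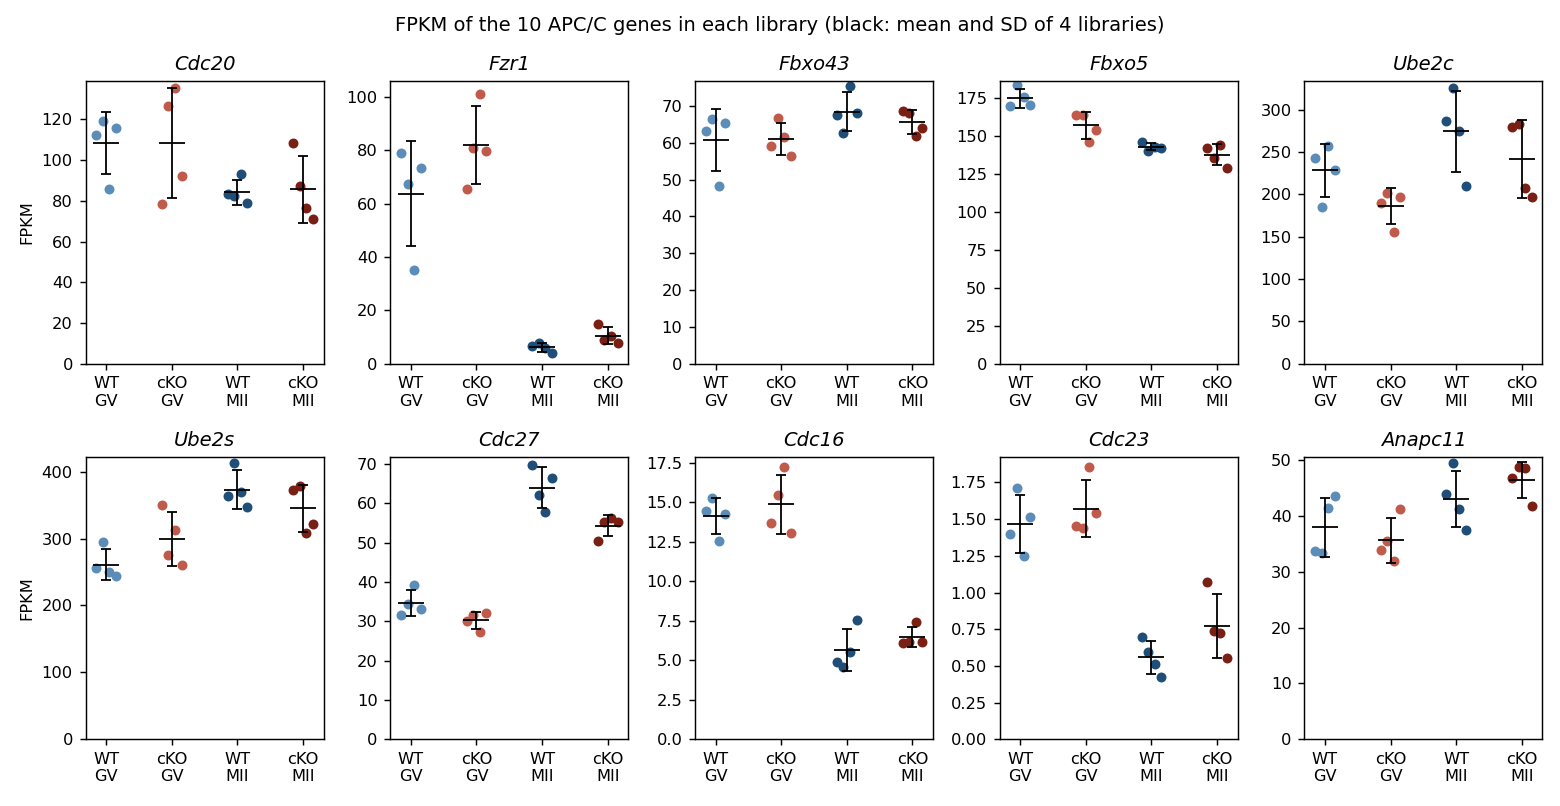
FPKM of each gene (y axis, starting at 0, 1 panel per gene) in the 4 libraries of WT GV, Psma7 cKO GV, WT MII and Psma7 cKO MII (x axis), with coloured points for libraries and black bars for mean and SD. Fzr1, Cdc16 and Cdc23 sit far lower in eggs than in GV oocytes in both genotypes and Cdc27 sits higher, while Fbxo43 stays between 48.3 and 75.4 FPKM throughout.

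The maturation comparison asked how these transcripts changed from the GV oocyte to the egg. In WT, Fzr1 showed by far the largest change of the 10 genes, falling about 10-fold, and the scaffold subunits moved in opposite directions, with Cdc16 and Cdc23 lower and Cdc27 higher in eggs. The E2 Ube2s rose, and Cdc20 and Fbxo5 fell to 77.8% and 81.7% of their mean GV level. In limma, with values below 1 FPKM set to 1 and a Benjamini-Hochberg adjusted p under 0.05 over all 10475 transcripts tested as the threshold, 7 of the 10 genes changed, 2 upwards and 5 downwards. Change was the rule at this step: 78.5% of all transcripts tested passed the same threshold, 26.1% upwards and 52.4% downwards. The median log2 change was -0.06 over the 10 genes and -0.44 over all transcripts. Groups did not overlap for 6 of the 10 genes, against 72.7% of all transcripts tested.

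Of the activators, Fzr1 lay at 78.8, 67.4, 35.1 and 73.3 FPKM in the WT GV libraries and at 6.71, 7.83, 6.04 and 3.97 FPKM in WT eggs. Every egg library was thus well below every GV library, including GV library 3, whose value was the lowest of its group. The log2 change was -3.35 ± 0.27 (SE), a 10.2-fold lower level (limma adjusted p = 7.01e-07). Cdc20 lay at 112, 119, 85.9 and 116 FPKM in WT GV libraries and at 83.1, 82.3, 93.0 and 78.7 FPKM in WT eggs, so that the ranges overlapped through that same GV library. Its log2 change was -0.35 ± 0.11 (limma adjusted p = 0.0126), and this call was lost when all 16 libraries shared 1 fit (adjusted p = 0.0642).

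The inhibitors differed from each other. Fbxo5 lay at 169.5, 183, 175 and 171 FPKM in WT GV libraries and at 146, 140.3, 143 and 142 FPKM in WT eggs, with no overlap. Its log2 change was -0.29 ± 0.06 (limma adjusted p = 0.00168). Fbxo43, the inhibitor that holds the MII arrest, lay at 63.3, 66.4, 48.3 and 65.4 FPKM in WT GV libraries and at 67.6, 62.5, 75.4 and 68.2 FPKM in WT eggs. Its ranges overlapped, and the log2 difference of 0.18 (95% interval -0.07 to 0.42) did not pass the test (limma adjusted p = 0.164).

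Of the E2 enzymes, Ube2s, the chain-lengthening one, lay at 256, 294, 249 and 244 FPKM in WT GV libraries and at 363, 413, 369 and 346 FPKM in WT eggs. The groups did not overlap, and the log2 change was 0.52 ± 0.09 (limma adjusted p = 0.00023). Ube2c, the priming E2, lay at 243, 185, 257 and 229 FPKM and then at 286, 325, 275 and 210.2 FPKM, with overlapping ranges and a log2 difference of 0.26 (95% interval -0.06 to 0.57, limma adjusted p = 0.117). It passed without WT MII library 4, its lowest egg value (0.38, adjusted p = 0.0155), and under the rescaling described below.

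Among the subunits, Cdc27 lay at 31.6, 34.4, 39.2 and 33.2 FPKM in WT GV libraries and at 69.7, 62.0, 57.7 and 66.3 FPKM in WT eggs, a log2 change of 0.89 ± 0.09 (limma adjusted p = 6.59e-06). Cdc16 lay at 14.5, 15.3, 12.5 and 14.3 FPKM and then at 4.92, 4.61, 5.55 and 7.53 FPKM, a log2 change of -1.35 ± 0.15 (limma adjusted p = 1.23e-05). Neither subunit's ranges overlapped, so proteins of the same scaffold had transcripts that rose and transcripts that fell. Cdc23, the remaining scaffold subunit, lay at 1.40, 1.71, 1.25 and 1.52 FPKM and then at 0.695, 0.597, 0.512 and 0.427 FPKM. Because every egg value was under the floor of 1 FPKM, its log2 change of -0.54 ± 0.13 (limma adjusted p = 0.00261) understates the fall, which was -1.41 with a floor of 0.1 FPKM. Anapc11, the RING subunit, lay at 33.6, 33.3, 41.4 and 43.5 FPKM and then at 43.9, 49.5, 41.2 and 37.4 FPKM, with overlapping ranges and a log2 difference of 0.18 (95% interval -0.08 to 0.45, limma adjusted p = 0.179).

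Maturation of Psma7 cKO oocytes gave, in the values as deposited, the same direction for all 10 genes as in WT. In limma 7 of the 10 passed the threshold, 3 upwards and 4 downwards, beside 74.0% of all 10748 transcripts tested (23.0% upwards and 51.0% downwards). The median log2 change was -0.04 over the 10 genes and -0.42 over all transcripts, and groups did not overlap for 6 of the 10 genes, against 68.6% of all. Fzr1 went from 65.5, 80.9, 101 and 79.6 FPKM in Psma7 cKO GV libraries to 14.9, 8.97, 10.3 and 7.63 FPKM in Psma7 cKO eggs, again with no overlap. This was a log2 change of -3.00 ± 0.21, or 7.98-fold lower (limma adjusted p = 3.37e-06).

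All 4 subunits passed in the mutant. Cdc27 went from 30.01, 31.5, 27.3 and 32.2 to 50.5, 55.3, 56.2 and 55.3 FPKM, a log2 change of 0.85 ± 0.08 (limma adjusted p = 2.21e-05). Cdc16 went from 13.7, 15.5, 17.2 and 13.1 to 6.08, 6.16, 7.41 and 6.17 FPKM, a log2 change of -1.20 ± 0.12 (limma adjusted p = 2.72e-05). Both kept their groups apart. Cdc23 went from 1.45, 1.44, 1.85 and 1.54 to 1.07, 0.739, 0.722 and 0.557 FPKM, a log2 change of -0.62 ± 0.11 with the floor of 1 FPKM (limma adjusted p = 0.000845) and of -1.06 with a floor of 0.1 FPKM. Anapc11 went from 33.9, 35.4, 31.8 and 41.2 to 46.7, 48.7, 48.5 and 41.7 FPKM, a log2 change of 0.39 ± 0.10 (limma adjusted p = 0.0071). Its highest GV library stood just under its lowest egg library.

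Of the remaining genes Ube2c and Fbxo5 passed in the mutant, and Ube2s, Cdc20 and Fbxo43 did not. Ube2c went from 190.2, 202, 156 and 196 to 279, 283, 207 and 196 FPKM, with overlapping ranges and a log2 change of 0.36 ± 0.15 (limma adjusted p = 0.0468). Fbxo5 went from 164, 164, 146 and 154 to 142, 136, 144 and 129 FPKM, a log2 change of -0.19 ± 0.08 (limma adjusted p = 0.0467). Both calls were close to the threshold: leaving out 1 library lost that of Ube2c in 6 of 8 cases (all except egg libraries 3 and 4) and that of Fbxo5 in 7 of 8 (all except GV library 3), with adjusted p up to 0.125 and 0.124. Ube2s went from 349.9, 276, 312 and 260.2 to 372, 378, 308 and 322 FPKM, with a log2 difference of 0.21 (95% interval -0.05 to 0.47, limma adjusted p = 0.131), and passed without GV library 1, its highest (0.29, adjusted p = 0.043), and under the rescaling described below. Cdc20 went from 78.7, 127, 136 and 92.4 to 108, 87.3, 76.7 and 70.9 FPKM, with a log2 difference of -0.32 (95% interval -0.76 to 0.12, limma adjusted p = 0.166). Fbxo43 went from 59.2, 66.6, 61.7 and 56.4 to 68.6, 68.0, 61.7 and 64.0 FPKM, with a log2 difference of 0.11 (95% interval -0.08 to 0.29, limma adjusted p = 0.266). The groups of Ube2s, Cdc20 and Fbxo43 overlapped.

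**Figure D2:**
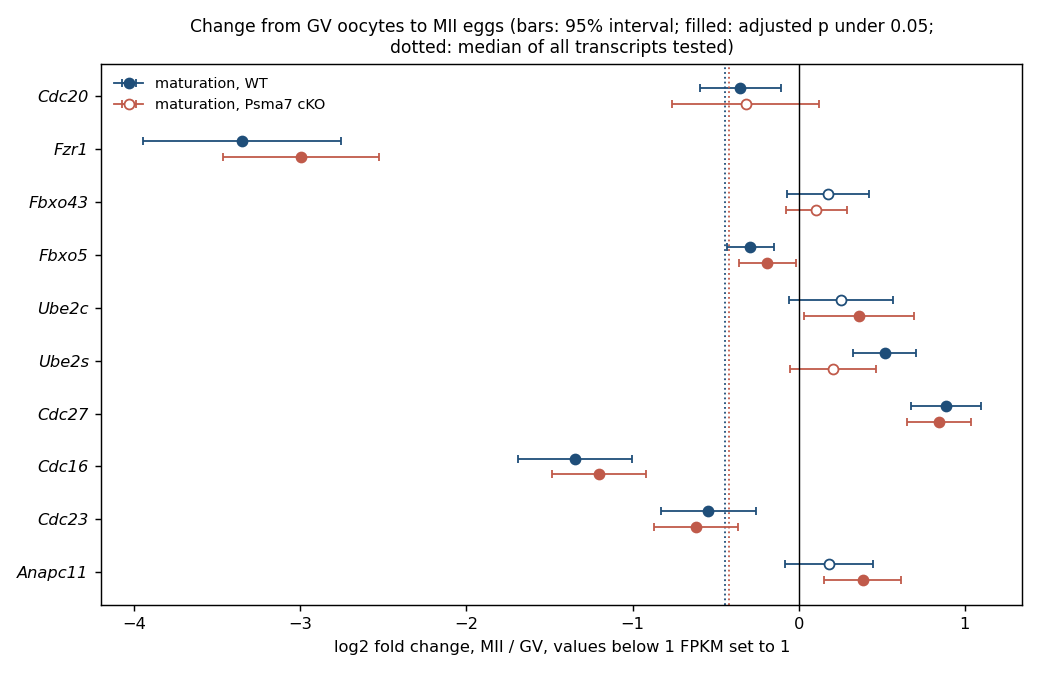
Log2 fold change from GV oocytes to MII eggs (x axis, values below 1 FPKM set to 1) of each gene (y axis) in WT and Psma7 cKO, with 95% intervals, filled points past the adjusted threshold and dotted lines at the median of all transcripts tested (-0.44 and -0.42). Fzr1 at -3.35 and -3.00 lies apart from the other 9 genes, which lie between -1.35 and 0.89.

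These directions depend on what a share is taken of. When each library was rescaled by the median ratio of expressed transcripts, log2 maturation changes of genes above the floor moved up by 0.22 in WT and 0.25 in Psma7 cKO, and that of Cdc23 in Psma7 cKO went from -0.62 to -0.47. Fzr1 and Cdc16 stayed lower and Cdc27 higher in eggs of both genotypes. The falls of Cdc20 (-0.13, adjusted p = 0.255) and Fbxo5 (-0.07, adjusted p = 0.417) in WT were lost, and Fbxo5 in Psma7 cKO stood at 0.06 (adjusted p = 0.482). Fbxo43 then passed as higher in eggs of both genotypes (0.40 in WT, adjusted p = 0.00423, and 0.36 in Psma7 cKO, adjusted p = 0.00644). Ube2c and Anapc11 also passed as higher in WT and Ube2s in Psma7 cKO, so that 5 genes were higher and 2 lower in WT, where Cdc23 fell below the filter, and 5 higher and 3 lower in Psma7 cKO. Under this rescaling 79.2% of 10420 transcripts tested passed in WT, 3457 higher and 4792 lower. In Psma7 cKO 74.0% of 10664 passed, 3314 higher and 4574 lower.

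The interaction of genotype and stage, fitted on all 16 libraries, asked whether the maturation change itself differed between genotypes. None of the 10 genes passed in limma, beside 1.26% of 10615 transcripts tested. An unadjusted p under 0.05 was found for 1 of the 10, beside 1347 positive and 534 negative interactions over the 10615. That gene was Ube2s, whose change was smaller in Psma7 cKO by 0.31 on the log2 scale (95% interval of the interaction -0.62 to -0.00, unadjusted p = 0.0475, adjusted p = 0.275). For Fzr1 the interaction was 0.35 (95% interval -0.44 to 1.15, limma adjusted p = 0.688), an interval that includes a fall weaker by more than a factor of 2 in the mutant as well as no difference.

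The genotype comparison at the GV stage asked whether loss of Psma7 altered these transcripts before maturation. None of the 10 genes passed in limma, beside 0.118% of 11062 transcripts tested (13 in all). An unadjusted p under 0.05 was found for 1 of the 10, beside 843 higher and 339 lower of the 11062. The median log2 difference, Psma7 cKO against WT, was -0.01 over the 10 genes and 0.04 over all transcripts. Cdc20 and Fbxo43 had nearly equal means in the genotypes (108 and 108 FPKM, 61.0 and 60.9 FPKM), with 95% intervals of the log2 difference of -0.41 to 0.36 and of -0.24 to 0.26. Ube2c, at 186 ± 20.9 FPKM in Psma7 cKO and 228 ± 31.3 in WT, had the lowest unadjusted p of 0.0357, with a log2 difference of -0.29 (95% interval -0.56 to -0.02, limma adjusted p = 0.424) and overlapping ranges. Fbxo5 was the gene whose genotypes did not overlap at this stage, 1 of 10 against 6.67% of all transcripts tested, at 146 to 164 FPKM in Psma7 cKO and 169.5 to 183 FPKM in WT. Its log2 difference of -0.16 (95% interval -0.33 to 0.01) did not pass (limma adjusted p = 0.511).

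Fzr1 stood at 81.8 ± 14.6 FPKM in Psma7 cKO and 63.7 ± 19.6 in WT GV oocytes, a log2 difference of 0.41 (95% interval -0.10 to 0.93, limma adjusted p = 0.577). WT GV library 3 set much of it, since the difference was 0.15 without that library. Ube2s stood at 299.6 ± 39.99 and 261 ± 22.8 FPKM (log2 difference 0.19), and Cdc27 at 30.3 ± 2.19 and 34.6 ± 3.29 FPKM (-0.19). Cdc16 (0.07), Cdc23 (0.10) and Anapc11 (-0.09) differed by less. In each of these 5 the genotypes overlapped and the test was not passed.

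In eggs the genotypes again gave no call. Cdc23 was under the filter of a mean of 1 FPKM, at 0.773 ± 0.217 in Psma7 cKO and 0.558 ± 0.115 in WT, so 9 of the 10 genes were tested. An unadjusted limma p under 0.05 was found for 2 of the 9, Fzr1 and Cdc27, beside 1952 higher and 835 lower of 9492 transcripts tested. After adjustment 0 of the 9 passed, beside 8.02% of the 9492 (6.53% higher and 1.49% lower in Psma7 cKO). That share over all transcripts was itself unstable, since leaving out 1 library gave 0.0315% (WT MII library 3), 0.126% (WT MII library 1), 0.408% (WT MII library 4), 1.20% (WT MII library 2) and 2.08%, 12.2%, 3.38% and 4.41% (Psma7 cKO MII libraries 1 to 4), with 0 of the tested genes called each time. The median log2 difference was -0.05 over the 9 genes and 0.07 over all transcripts.

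Fzr1 lay at 14.9, 8.97, 10.3 and 7.63 FPKM in Psma7 cKO eggs and at 6.71, 7.83, 6.04 and 3.97 FPKM in WT eggs. The lowest mutant library was just below the highest WT library. The log2 difference was 0.76 ± 0.25 (95% interval 0.20 to 1.33, limma adjusted p = 0.0868), and it was 0.57 to 0.90 when any 1 of the 8 libraries was left out. Without the filter on low values Fzr1 passed (adjusted p = 0.0336). In both genotypes the egg level remained far below that of the GV oocyte, at 9.64% of it in WT and 12.8% in Psma7 cKO.

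Cdc27 lay at 50.5, 55.3, 56.2 and 55.3 FPKM in Psma7 cKO eggs and at 69.7, 62.0, 57.7 and 66.3 FPKM in WT eggs. It was the only 1 of the 10 genes whose genotypes did not overlap, beside 20.7% of all transcripts tested. The log2 difference was -0.23 ± 0.08 (95% interval -0.40 to -0.06, limma adjusted p = 0.0852). For Fbxo43, which keeps the egg at MII, the difference was -0.06 (95% interval -0.23 to 0.11), and for Cdc20 it was 0.01 (95% interval -0.28 to 0.29). Fbxo5 (-0.05), Ube2s (-0.12), Ube2c (-0.19), Anapc11 (0.11) and Cdc16 (0.21) had adjusted p of 0.412 to 0.553 in limma and overlapping ranges. The genotype and maturation comparisons share libraries, so their values are not independent of each other.

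**Figure D3:**
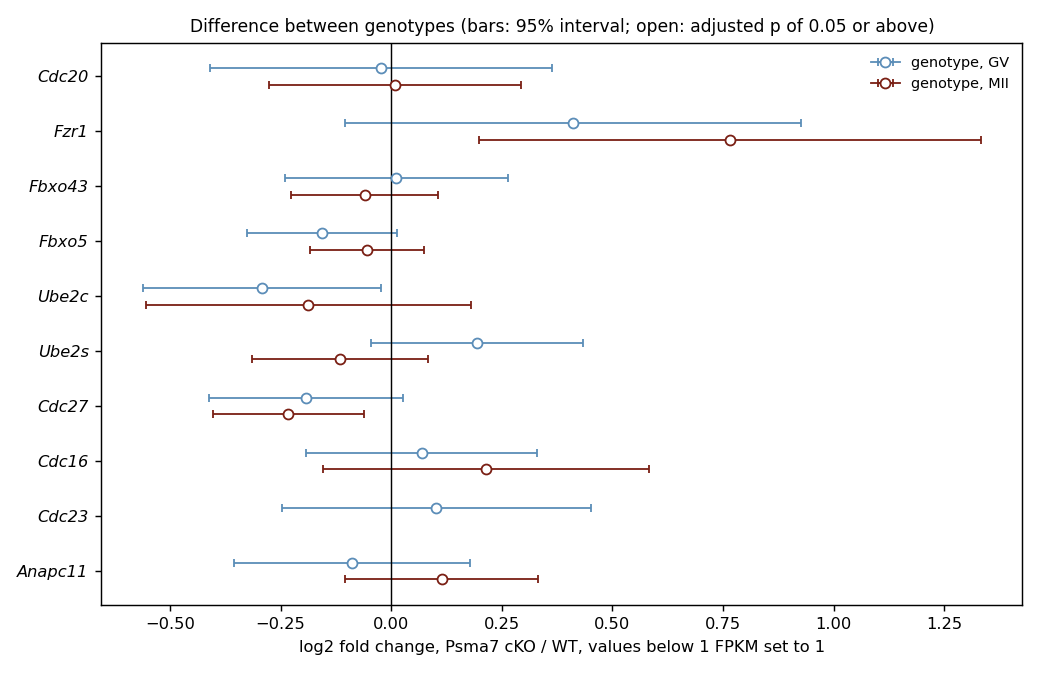
Log2 fold change of Psma7 cKO against WT (x axis, values below 1 FPKM set to 1) of each gene (y axis) in GV oocytes and MII eggs, with 95% intervals. All points are open, as no gene passed the adjusted threshold, and the intervals of Fzr1 (0.20 to 1.33) and Cdc27 (-0.40 to -0.06) in eggs and of Ube2c (-0.56 to -0.02) in GV oocytes do not include 0. At an unadjusted p under 0.05, 1952 of all 9492 transcripts tested in eggs were higher and 835 lower. In GV oocytes these were 843 and 339 of 11062. Cdc23 was not tested in eggs.

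Ratios within a library do not depend on its total, and 3 pairs with opposed or successive roles were compared between genotypes at both stages by two-sided exact permutation tests of the log2 ratio. Each test used 4 libraries against 4, for which the smallest p possible is 0.0286, and p-values were adjusted over the 6 tests. A ratio at that smallest p could therefore not pass after adjustment unless others of the 6 reached it too. The ratio of the activators, Fzr1 to Cdc20, was 0.138, 0.103, 0.135 and 0.108 in Psma7 cKO eggs and 0.0807, 0.0952, 0.0650 and 0.0504 in WT eggs. The ranges did not overlap, with means 0.121 ± 0.018 and 0.0728 ± 0.0194 (n = 4 each) and a 1.69-fold higher ratio in the mutant (exact p = 0.0286, adjusted p = 0.171). In GV oocytes it was 0.770 ± 0.1001 in Psma7 cKO and 0.577 ± 0.126 in WT (n = 4 each, exact p = 0.0571, adjusted p = 0.171). By FPKM Cdc20 thus stood above Fzr1 in every library, and Fzr1 amounted to between 0.408 and 0.862 of it in GV oocytes and to at most 0.138 in eggs. A ratio between genes also depends on the transcript lengths used, which are not given, and on how each 3′ end is captured.

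The ratio of the inhibitors, Fbxo43 to Fbxo5, was 0.477 ± 0.033 in Psma7 cKO eggs and 0.479 ± 0.035 in WT eggs (n = 4 each, exact p = 0.971), and 0.389 ± 0.030 and 0.349 ± 0.049 in GV oocytes (exact p = 0.257). The ratio of the E2 enzymes, Ube2s to Ube2c, was 1.45 ± 0.15 and 1.38 ± 0.18 in eggs (exact p = 0.6). In GV oocytes it was 1.84, 1.37, 2.01 and 1.32 in Psma7 cKO and 1.05, 1.59, 0.972 and 1.07 in WT, with overlapping ranges (exact p = 0.0857, adjusted p = 0.171). No ratio passed after adjustment, which a single ratio could not have done alone.

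**Figure D4:**
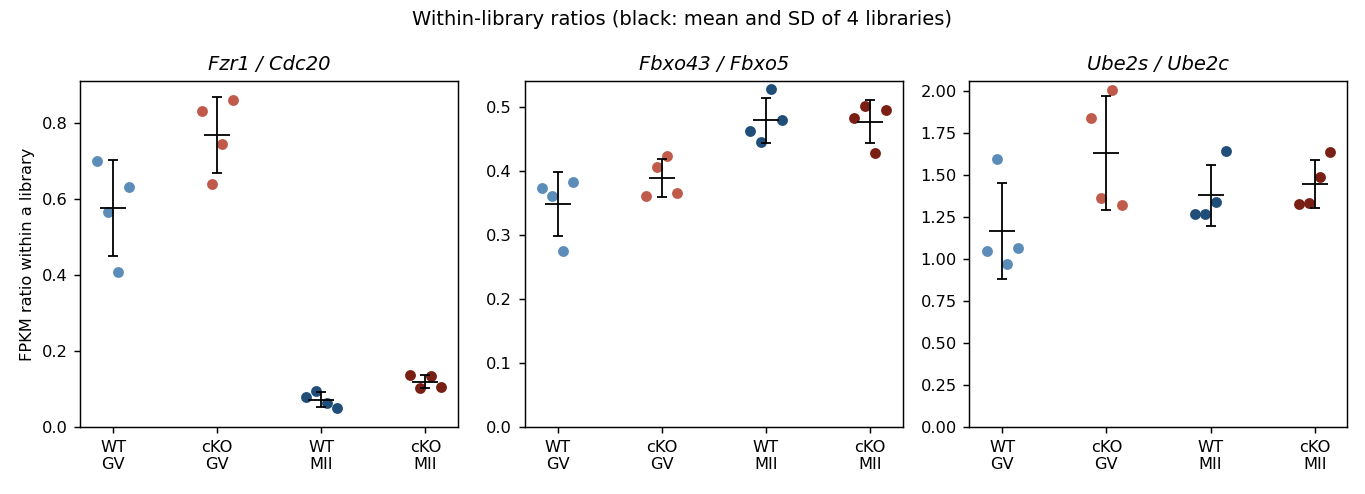
Within-library FPKM ratios (y axis, starting at 0) of Fzr1 to Cdc20, Fbxo43 to Fbxo5 and Ube2s to Ube2c in the 4 groups (x axis), with points for libraries and black bars for mean and SD. The Fzr1 to Cdc20 ratio drops from 0.408 to 0.862 in GV oocytes to 0.0504 to 0.138 in eggs, where the 4 Psma7 cKO libraries lie above the 4 WT libraries.

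The rest of the pathway gave a setting for these genes. During WT maturation, where 78.5% of all transcripts passed, 8 of the 10 other APC/C subunits tested changed in limma, 3 upwards and 5 downwards, with a median log2 change of -0.72 beside -0.44 over all transcripts. The largest changes were those of Anapc5 (-2.65), Anapc2 (-2.47, the cullin subunit that holds Anapc11) and Anapc15 (-2.19). All 3 of the other priming E2 enzymes, Ube2d1 (1.16), Ube2d2a (0.76) and Ube2d3 (0.64), rose, unlike Ube2c, which did not pass. In Psma7 cKO maturation, beside 74.0% of all transcripts, 7 of the 10 other subunits changed, 2 upwards and 5 downwards, led by Anapc5 (-2.66), Anapc2 (-2.16) and Anapc7 (-2.14), and the 3 E2 enzymes rose by 0.44 to 1.34. Under the median-ratio rescaling these named changes kept their direction and call.

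The spindle checkpoint, which restrains Cdc20 until chromosomes are attached, had 7 of 8 genes changed in WT maturation, 3 upwards and 4 downwards (median -0.45). Beside this and the next counts stand 78.5% of all transcripts tested, 26.1% upwards and 52.4% downwards. Mad2l1, whose protein binds Cdc20, rose by 1.52, while its partner Mad1l1 fell by 1.71 and the kinase gene Ttk fell by 1.40 on the log2 scale. Of the 11 APC/C substrates 6 rose and 4 fell (median 0.32), with Pttg1 (securin) at 1.54, Plk1 at -1.78 and Aurka at -1.35. Of 7 tested genes that control the activators and inhibitors 1 rose and 4 fell (median -0.49), with the largest changes in Btrc, which codes for an F-box protein that targets Fbxo5 and Fbxo43 (-2.90), Rps6ka1 (-1.57) and Cdc14b (-0.81). Psma7 cKO maturation had 23.0% of all transcripts tested upwards and 51.0% downwards. The counts there were 3 upwards and 4 downwards of the 8 checkpoint genes and 6 and 4 of the 11 substrates. For the 7 control genes they were 2 and 3. The largest changes there were Mad1l1 (-1.84), Mad2l1 (1.47) and Trip13 (-1.46), then Pttg1 (1.44), Plk1 (-1.33) and Nek2 (-1.21), and Btrc (-2.36), Rps6ka1 (-1.73) and Mos (0.89).

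Between genotypes, none of the 39 tested genes of these 5 lists passed at the GV stage, where none had an unadjusted p under 0.05 either. Over all 11062 transcripts tested there, 843 were higher and 339 lower at that unadjusted cutoff. In eggs 3 of the 39 passed in limma, beside 8.02% of all transcripts, and all 3 were higher in Psma7 cKO. Anapc15, an APC/C subunit that promotes turnover of the checkpoint complex, differed by 0.84 (adjusted p = 0.0373), Anapc4 by 0.31 (adjusted p = 0.0471) and Aurka by 0.42 (adjusted p = 0.0325) on the log2 scale. Leaving out 1 of the 8 libraries lost the call of Anapc15 in 7 cases, of Anapc4 in 6 and of Aurka in 7, with adjusted p of at most 0.106, 0.110 and 0.0983, and the rescaling lost that of Anapc4 (0.27, adjusted p = 0.0596). With the replicate block all 3 calls were lost (adjusted p = 0.0857, 0.0865 and 0.0515). Each of the 3 fell during WT maturation, as did 52.4% of all transcripts tested. In the same eggs 3 of 8 oocyte markers, Figla (1.57), Zp3 (1.20) and Ooep (0.53), were also higher in Psma7 cKO, with calls lost in 6, 3 and 7 of the 8 cases of leaving out 1 library and in all 3 genes with the replicate number as a block (adjusted p = 0.0763, 0.0502 and 0.0797). The rescaling also lost Ooep (adjusted p = 0.0541). Among cumulus and granulosa markers 0 of 2 tested passed (0 with an unadjusted p under 0.05, beside 1952 higher and 835 lower of 9492 transcripts). The part of these in the differences above was not tested. In the interaction none of the 39 genes passed, while the oocyte markers Figla and Zp3 did, beside 1.26% of 10615 transcripts. An unadjusted p under 0.05 was found for 4 of the 39, beside 1347 positive and 534 negative of the 10615. Of the 16 cases of leaving out 1 library the Figla call was lost in 12 (adjusted p up to 0.0879) and the Zp3 call in 1, and the block lost that of Figla (adjusted p = 0.0686).

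**Figure D5:**
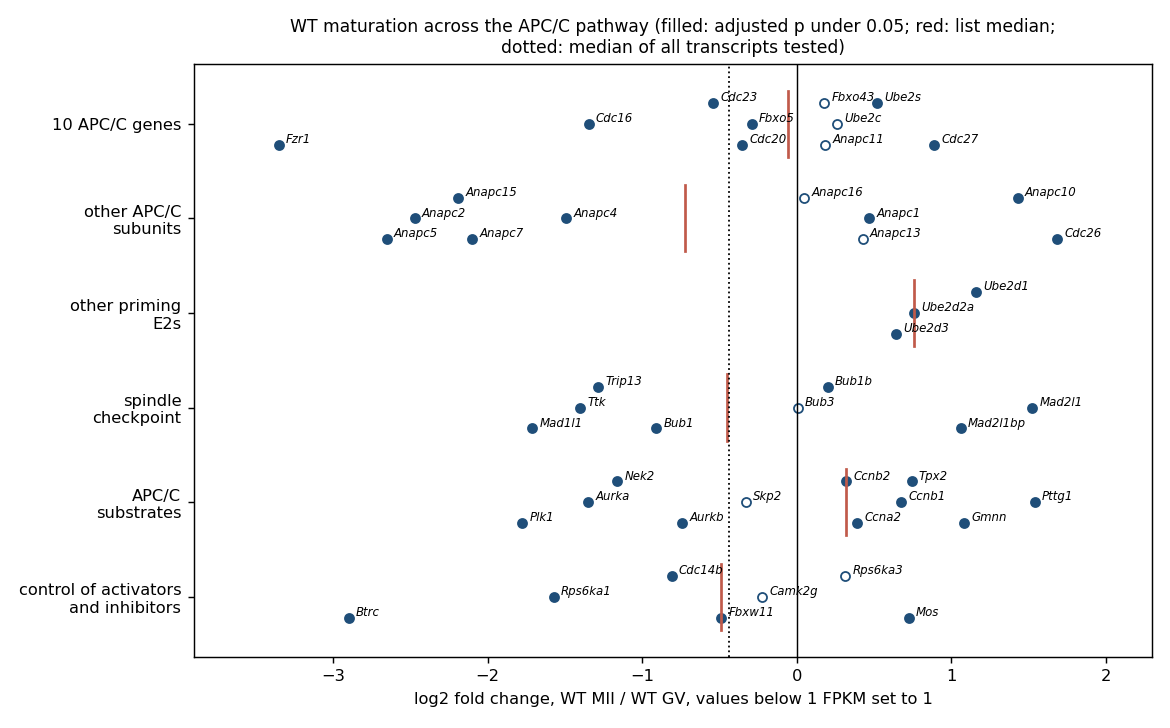
Log2 fold change from WT GV oocytes to WT eggs (x axis, values below 1 FPKM set to 1) of every tested gene of the 6 pathway lists (y axis), with filled points past the adjusted threshold, a red line at each list's median and a dotted line at the median of all transcripts (-0.44). Each list holds genes that go up and genes that go down except the other priming E2 enzymes, which are all at 0.64 or above.

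The transcripts whose pattern over the 16 libraries was most like that of the regulators were found by Pearson's r of log2 FPKM, with values below 1 set to 1. The search covered 10615 transcripts and is a description, since the libraries share the stage difference. For Fzr1 they included Pabpc1l, an oocyte poly(A)-binding protein gene, and Slc15a4, each with r of 0.993. Pabpc1l averaged 90.5 FPKM in WT GV oocytes and 7.84 in WT eggs, against 14.5 in the eggs of Psma7 cKO females. For Cdc20 they included Fbxl20 (r = 0.923) and Gnl2 (0.912). For Fbxo43 they were Usp33 (0.900), Gm16551 (0.888) and Socs6 (0.881), and for Fbxo5 they were Gm35217 (0.915), 1700030A11Rik (0.910) and Gm30798 (0.906). The genes most like Fbxo5 were scarce, since none of the 3 averaged above 5.80 FPKM in any group, whereas Fbxo5 averaged at least 138 FPKM in every group. In eggs the means of these 3 were 0.341 to 0.762 FPKM, below the floor of 1 FPKM, so r says little about their egg libraries.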

How the data were processed

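WT and Psma7 cKO GV oocytes and eggs were profiled by Smart-seq2 with 4 libraries per group, and groups and replicates were read from the sample labels. The authors deposited 1 table of FPKM values for 28618 entries, made with Cufflinks 2.2.1 according to the methods. The submitters' processing notes also name TopHat2 2.1.1 and mm10, and the annotation is not given in the sources used here. The values carry no scaling to a spike-in. They were used as deposited, with values below 1 FPKM set to 1 as in the study's methods, and a fold change on that log2 scale understates the change of low genes.

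Transcripts averaging 1 FPKM or more in a comparison's libraries were tested with limma 3.58.1 in R 4.3.3 (empirical Bayes with an intensity trend). Each contrast used only its 8 libraries, and the interaction used all 16, with Benjamini-Hochberg adjustment over all transcripts tested and a threshold of 0.05. The scripts were tested on simulated data. Within-library ratios were compared by two-sided exact permutation (70 arrangements). Depth was estimated from the steps between values below 0.6 FPKM and from transcript lengths, and fragments behind a value from that depth, so both are estimates, and no counting interval was attached to an FPKM. The p-values measure the spread between these pools.

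The 10 genes were all named. From the other lists (other APC/C subunits, other priming E2s, spindle checkpoint, APC/C substrates, control genes, oocyte markers, and cumulus and granulosa markers) up to 3 genes with the largest change past the threshold were named in each comparison, and for Cdc20, Fzr1, Fbxo43 and Fbxo5 the 3 most alike transcripts, of which some are not reported here. Genes and lists were chosen with earlier results of these data known. Gene models and sequence came from GENCODE M21 on GRCm38. Other steps ran in Python 3.11.15 (scipy 1.17.1, numpy 2.4.6, matplotlib 3.10.9, pandas 2.3.3). Alternatives were another floor (0.1 FPKM), adding 1 FPKM, median-ratio rescaling, dropping the filter or raising it to 5 FPKM, no intensity trend, 1 fit of all libraries, a 3-fold minimum, a replicate block and leaving out each library.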

Additional observations from a re-analysis of the deposited data

Results flagged for a closer look

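Each gene's 4 libraries in a group, and each ratio's, were searched for a library that stood far from the others, by Dixon's criterion (gap to the nearest library over the group's range, at the 95% critical value for 4 samples). Of 52 groups checked 3 met it, about what chance gives at 1 in 20 groups. Cdc27 stood at 50.5 FPKM in Psma7 cKO MII library 1, below 55.3 to 56.2 FPKM in the others. Cdc16 stood at 7.41 FPKM in Psma7 cKO MII library 3, above 6.08 to 6.17 FPKM in the others. The Ube2s to Ube2c ratio was 1.59 in WT GV library 2, above 0.972 to 1.07 in the others. The 3 values fell in 3 different libraries.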

How the results depend on the processing

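Over 845 recomputed values of single genes, 814 kept their side of the threshold, 22 lost a call, 8 gained one and 1 called value changed sign and lost its call, Fbxo5 in Psma7 cKO maturation under median-ratio rescaling (0.062). Of the 814, 25 changed sign without passing the threshold, all in the genotype comparisons or the interaction. The number of the 10 genes called in the egg genotype comparison was 1 without a filter (Fzr1) and 0 otherwise. With a change of more than 3-fold also required it was 1 in WT maturation and 1 in Psma7 cKO maturation, Fzr1 in both. Leaving out each library gave 6 to 8 calls in WT maturation, where Cdc23 dropped below the filter without any 1 of the WT GV libraries, and 5 to 6 in Psma7 cKO maturation, and 0 in the other 3 comparisons. Over all transcripts it gave 5 to 19 calls in the GV genotype comparison (lowest without Psma7 cKO GV library 1 or 4, highest without WT GV library 1), 3 to 1160 in eggs (without WT MII library 3 and Psma7 cKO MII library 2) and 41 to 651 in the interaction (without Psma7 cKO GV library 3 and Psma7 cKO MII library 2). In maturation it called 75.4% to 79.0% of all transcripts tested in WT and 69.5% to 73.1% in Psma7 cKO. No ratio passed under any alternative run (lowest adjusted p = 0.171). A single ratio could not have passed with so few libraries, so this does not show that the ratios are alike. The Fbxo43 to Fbxo5 difference in eggs turned from -0.0052 to 0.042 and 0.046 without WT MII or Psma7 cKO MII library 3. Without the filter, without the intensity trend or with a replicate block, Fbxo5 in Psma7 cKO maturation lost its call (adjusted p = 0.12, 0.0901 and 0.126).

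Same-numbered libraries did not deviate together in a constant direction (correlations of -0.50 to 0.29 over the stages and genotypes), so the numbers were not treated as pairs. The correlations were not all near 0, at -0.50 between genotypes for GV replicate 3 and 0.29 for MII replicate 4. With the replicate block, 7 of the 10 genes were called in WT maturation, 6 in Psma7 cKO maturation and 0 in the other comparisons. Of all transcripts tested, the block called 76% in WT maturation and 70.1% in Psma7 cKO maturation. The egg genotype comparison then gave 108 calls in place of 761, the GV one 6 in place of 13 and the interaction 60 in place of 134. The Fzr1 to Cdc20 log2 ratio difference remained 0.76 in eggs (paired exact p = 0.125, the smallest possible). Rescaling moved the share of upward calls over all transcripts from 81.5% to 71.1% in the egg genotype comparison and from 31.1% to 42.0% in Psma7 cKO maturation. A mean of at least 5 FPKM left Cdc23 untested. Depth limits Cdc23 most, at an estimated 23 fragments in its lowest library.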
